A study of Homo sapiens with 4 samples.

Results

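The growth factor receptors that signal to the kinase AKT were examined in 2 hepatocellular carcinoma cell lines. They comprised 8 genes chosen by name, of 60612 genes listed: EGFR, ERBB2 and ERBB3 of the EGF receptor family, MET, AXL, and FGFR1, FGFR2 and FGFR3 of the FGF receptor family. Of these, 7 reached 1 FPKM (fragments per length of transcript, relative to all mapped fragments) in at least 1 library, as did 13857 genes in all. FPKM is scaled to transcript length, so that levels can be set side by side between genes.

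The study sequenced polyadenylated RNA to ask how mRNA levels in liver cancer cells depend on CCDC137, which binds RNA in the nucleus. In Huh-7, an empty vector was set against lentiviral overexpression of V5-tagged CCDC137. PLC/PRF/5 cells carried a control vector or had CCDC137 knocked down by a guide RNA with inactive Cas9 fused to the KRAB repressor. There were 4 libraries, 1 per group. The cultures were stably transduced, and no genotype or treatment beyond these was labelled. With 1 library per group no difference between treated and control has a replicate check or a test. The 2 libraries of a line differ in treatment, and no test was run between the lines. CCDC137 matched the labels, with 11.9 FPKM with empty vector and 229.0 with overexpression in Huh-7, and 20.5 FPKM for the control and 0.771 for the knockdown of PLC/PRF/5. Huh-7 was grown in DMEM and PLC/PRF/5 in MEM, and the vectors used in the lines differed. Line, medium and vector therefore cannot be told apart.

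Receptor tyrosine kinases span the cell membrane. Binding of a ligand pairs the receptors, which then phosphorylate each other and recruit adaptors, and these activate PI3-kinase and, through it, AKT. The ERBB3 chain has a weak kinase but many docking sites for PI3-kinase, ERBB2 has no known ligand and acts as a partner, and in the liver MET, the receptor of hepatocyte growth factor, and EGFR are known for their part in regeneration.

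The liver identity of the lines was read from 7 hepatocyte markers. Albumin (ALB) reached 1084.0 and 1142.0 FPKM in Huh-7, against 2.15 and 1.94 in PLC/PRF/5. Transthyretin (TTR) and apolipoprotein A1 (APOA1) were likewise high in Huh-7 and low in PLC/PRF/5, while SERPINA1, HNF4A and fibrinogen beta (FGB) were above 9 FPKM in all 4 libraries. Alpha-fetoprotein (AFP) was at 418.9 FPKM with empty vector, 530.2 with overexpression, 90.8 in control and 139.1 in knockdown cells. Its difference of 0.61 on the log2 scale on knockdown was the only one past 1.5-fold among the hepatocyte markers. Of 4 fibroblast markers, none reached 1 FPKM, with a highest value of 0.846. Of the endothelial and blood markers, PECAM1 and CD68 reached 1 FPKM in at least 1 library, and PTPRC and HBB were listed at 0 throughout. CD68 was at 8.45 FPKM with empty vector, 4.60 with overexpression, 38.2 in control and 43.8 in knockdown cells.

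AXL divided the lines most sharply, EGFR was high in both, and FGFR2 was listed at 0 in both. The 250 bases before the start of these 3 genes are shown because they stand for these 3 patterns, for the first start listed for each gene. They are RefSeq sequences of build GRCh38.p14, with GC boxes (GGGCGG, or CCGCCC where the box is on the other strand) in capitals. Entries of 6 of the 8 receptors were read. AXL lies at chr19:41218973-41219222 (plus strand), EGFR at chr7:55018767-55019016 (plus strand) and FGFR2 at chr10:121598445-121598694 (minus strand).
AXL: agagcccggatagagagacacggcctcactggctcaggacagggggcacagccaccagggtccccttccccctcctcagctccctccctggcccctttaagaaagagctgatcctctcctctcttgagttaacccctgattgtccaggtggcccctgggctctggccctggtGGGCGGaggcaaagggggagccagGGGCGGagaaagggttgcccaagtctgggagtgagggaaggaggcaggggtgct
EGFR: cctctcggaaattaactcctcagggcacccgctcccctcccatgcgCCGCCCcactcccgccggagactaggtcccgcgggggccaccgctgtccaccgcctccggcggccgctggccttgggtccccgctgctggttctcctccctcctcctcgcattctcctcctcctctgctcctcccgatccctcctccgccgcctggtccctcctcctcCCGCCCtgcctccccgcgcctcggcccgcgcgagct
FGFR2: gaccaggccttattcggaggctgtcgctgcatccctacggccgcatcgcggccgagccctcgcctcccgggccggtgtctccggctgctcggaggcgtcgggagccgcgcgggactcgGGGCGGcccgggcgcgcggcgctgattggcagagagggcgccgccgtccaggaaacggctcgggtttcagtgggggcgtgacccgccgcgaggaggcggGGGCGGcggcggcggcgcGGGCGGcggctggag

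GC boxes numbered 2 in the AXL sequence, 2 in EGFR and 3 in FGFR2, and 42.6% of 35116 promoters of this length held at least 1. G and C made up 64.4% of the bases for AXL, 73.6% for EGFR and 78.4% for FGFR2, against a median of 58.0%. CpG dinucleotides numbered 4, 25 and 42 in the same order, with a median of 11 over all promoters. Other starts listed for the same genes differed. The second of AXL had 13 CpG dinucleotides and 0 GC boxes, the second of EGFR had 1 and 0, and the other 4 of FGFR2 had between 3 and 7 with at most 1 box. Which start these cells use was not tested, and a match to these letters describes the sequence only.

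EGFR, the receptor of EGF and amphiregulin, was the most abundant of the receptors in 3 of the 4 libraries. It was at 37.9 FPKM with empty vector and 33.4 with overexpression in Huh-7, and at 27.3 in control and 24.1 in knockdown PLC/PRF/5 cells. Both Huh-7 libraries were above both PLC/PRF/5 libraries, by a ratio of means of 1.39. EGFR (ENSG00000146648) spans chr7:55086710-55279321 on the plus strand. Positions of genes are from GENCODE 44 lifted to GRCh37.

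EGFR made up 45.7% and 38.9% of the receptors' summed FPKM in the Huh-7 libraries, and 21.8% and 20.5% in the PLC/PRF/5 libraries. The sums themselves were 82.9 and 85.9 in Huh-7 and 125.2 and 117.5 in PLC/PRF/5. The larger sums of PLC/PRF/5 thus went with a smaller share for EGFR and larger shares for AXL, ERBB2 and ERBB3.

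ERBB3, the partner that docks PI3-kinase, was at 12.85 and 15.45 FPKM in Huh-7 with empty vector and overexpression, and at 26.95 and 28.1 in PLC/PRF/5 control and knockdown cells. Its PLC/PRF/5 mean was 1.95 times the Huh-7 mean, and the groups of libraries did not overlap. In PLC/PRF/5 its levels lay beside those of EGFR, and the order of the pair changed between the libraries. ERBB3 (ENSG00000065361) spans chr12:56470583-56497289 on the plus strand.

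ERBB2, the receptor amplified in a class of breast cancers, was low in Huh-7 at 2.59 FPKM with empty vector and 3.01 with overexpression. PLC/PRF/5 held 10.8 FPKM in the control and 10.03 in the knockdown, a mean 3.71 times that of Huh-7. Both libraries of each line lay close together and far from the other line. ERBB2 (ENSG00000141736) spans chr17:37844167-37886679 on the plus strand.

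MET was at 14.99 FPKM with empty vector and 14.7 with overexpression, and at 21.9 and 21.6 in PLC/PRF/5 control and knockdown cells. Its treated and control libraries were the nearest of the expressed receptors in each line. The PLC/PRF/5 mean was 1.47 times the Huh-7 mean. MET (ENSG00000105976) spans chr7:116312250-116438431 on the plus strand.

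AXL, a receptor of the TAM family that binds GAS6, was at 0.173 FPKM with empty vector and 0.0882 with overexpression. The PLC/PRF/5 control held 18.1 FPKM and the knockdown 14.2. By level it was number 7 of the 8 receptors in both Huh-7 libraries, and number 4 in the control and 5 in the knockdown of PLC/PRF/5. The means differed 124-fold, a ratio that rests on Huh-7 values far below 1 FPKM. AXL (ENSG00000167601) spans chr19:41725128-41767671 on the plus strand. In bulk RNA, fewer cells with a transcript and less transcript per cell cannot be told apart.

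FGFR3, a receptor of FGF ligands, was at 12.75 FPKM with empty vector, 17.6 with overexpression, 17.7 in control and 17.2 in knockdown cells. Only the empty vector library stood lower, and the lines overlapped. FGFR1, the receptor used most in mesenchymal cells, was at 1.68, 1.59, 2.41 and 2.25 FPKM in the same order, the lowest of the expressed receptors in PLC/PRF/5. FGFR2, whose epithelial isoform binds FGF7 and FGF10, was listed at 0 in all 4 libraries. FGFR1 (ENSG00000077782) spans chr8:38257733-38326352, FGFR2 (ENSG00000066468) chr10:123237846-123357972 and FGFR3 (ENSG00000068078) chr4:1795020-1810599, the first 2 on the minus strand.

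**Figure D1:**
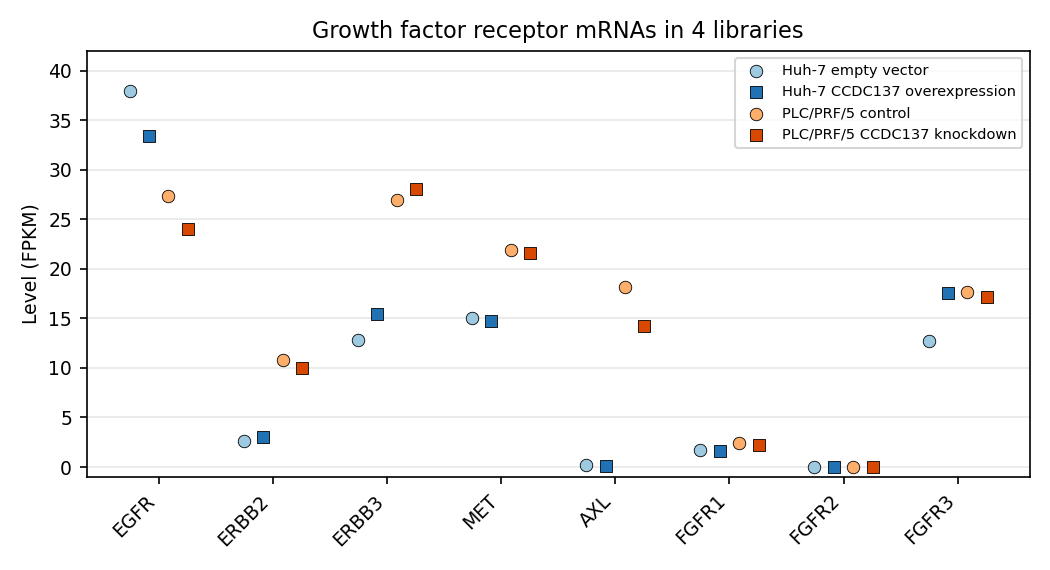
FPKM of the 8 receptors in the 4 libraries, with 1 point per library (circles for the control library of each line, squares for the treated one). AXL and ERBB2 stand apart between the lines, and FGFR2 is listed at 0 throughout. With smaller gaps, EGFR is higher in both Huh-7 libraries, and ERBB3, MET and FGFR1 are higher in both PLC/PRF/5 libraries.

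In descending order of level, EGFR led Huh-7. MET, ERBB3 and FGFR3 followed with overlapping ranges, and then came ERBB2, FGFR1, AXL and FGFR2. In PLC/PRF/5, EGFR and ERBB3 overlapped at the top, above MET. AXL and FGFR3 overlapped below it, and ERBB2 and FGFR1 followed. Ranges here are those of the control and the treated library of a line, and are not replicate error.

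The range over the 4 libraries, on the log2(FPKM + 1) scale, was 4.14 for AXL, 1.71 for ERBB2, 1.07 for ERBB3, 0.63 for EGFR, 0.55 for MET, 0.44 for FGFR3 and 0.40 for FGFR1. A gene was counted as apart where both libraries of a line lay above both of the other, with a 2-fold gap in FPKM + 1 between the nearest. By this rule 2 of the 7 expressed receptors were apart, AXL and ERBB2, both higher in PLC/PRF/5. Over all 13857 expressed genes 10.5% were apart and higher in PLC/PRF/5, and 9.53% were apart and higher in Huh-7. The nearest receptors on either side of the rule, a gap of 1 on the log2 scale, were ERBB3 at 0.77 and ERBB2 at 1.46. The ERBB3 gap passed a 1.5-fold rule.

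On CCDC137 overexpression in Huh-7, none of the 6 expressed receptors differed 1.5-fold between the libraries, on the scale of FPKM + 1. Over all 12255 genes expressed in that comparison 6.21% did. FGFR3 differed most, at 1.38 times its empty vector level and 0.44 on the log2 scale, and 10.2% of expressed genes differed by as much or more. ERBB3 was 0.25 and ERBB2 0.16 higher on the log2 scale, and EGFR was 0.18 lower. MET, at -0.03, and FGFR1, at -0.05, differed least, and the sign for MET turned to 0.01 where each library was rescaled to the same sum.

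The receptors' median difference on overexpression was 0.07 on the log2 scale, with 3 higher and 3 lower, against a median of 0.02 for all expressed genes. The receptors' median was -0.01 with no filter on low values and 0.12 with each library rescaled to the same sum. Rescaling moves all genes, and the median of all expressed genes was not computed under these settings. The median of the absolute differences was 0.17 for the receptors and 0.13 for all expressed genes. The ratio for AXL, 0.509, rests on values of 0.173 and 0.0882 FPKM, and AXL did not count as expressed in Huh-7.

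On CCDC137 knockdown in PLC/PRF/5, none of the 7 expressed receptors differed 1.5-fold, beside 6.03% of 12300 expressed genes. AXL differed most, with 0.784 times its control level and -0.33 on the log2 scale, and 14.2% of expressed genes differed by as much or more. EGFR was at -0.18, ERBB2 at -0.09, FGFR1 at -0.07, FGFR3 at -0.04 and MET at -0.02, and ERBB3 alone was higher, at 0.06. Their median was -0.07, against -0.01 for all expressed genes, of which 52.2% were lower. With each library rescaled to the same sum the receptors' median was -0.11, and that of all expressed genes was not computed.

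**Figure D2:**
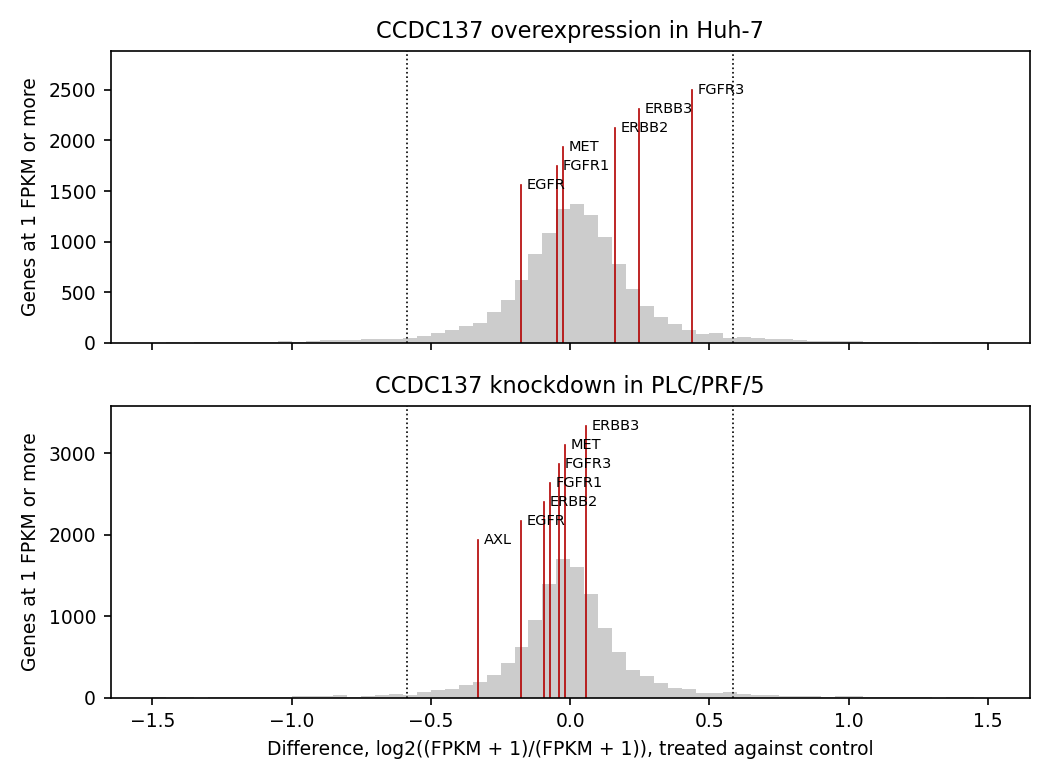
Differences of the 6 receptors expressed on overexpression and the 7 expressed on knockdown, as log2((FPKM + 1)/(FPKM + 1)) of treated against control, over the histogram of all genes expressed in that comparison (red lines mark the receptors and their height carries no value, and genes beyond the drawn axis are not shown). No receptor lies past the dotted 1.5-fold lines, and FGFR3 on overexpression and AXL on knockdown lie farthest from 0.

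EGFR was lower in the treated library of each line, by a ratio of 0.882 on overexpression and 0.88 on knockdown. The manipulations of CCDC137 were opposite, while these differences had the same sign. Differences of that size or more were found for 37.0% of expressed genes on overexpression and 30.7% on knockdown. The same sign in both was not particular to EGFR, and its share over all expressed genes was not computed. MET (-0.03 and -0.02) and FGFR1 (-0.05 and -0.07) were also lower in both, and ERBB3 (0.25 and 0.06) was higher in both. The sign for MET on overexpression turned with rescaled libraries. ERBB2 and FGFR3 had opposite signs in the comparisons, higher on overexpression and lower on knockdown, none of them past 1.5-fold.

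Antisense and overlapping genes limit some of these values, since the use of strand in the quantification is not given in the sources used here. EGFR-AS1, an antisense RNA that shares exon sequence with EGFR, was at 3.22 and 3.05 FPKM in Huh-7 and at 0.0382 and 0.0986 in PLC/PRF/5. The antisense gene and EGFR were thus both higher in Huh-7, and their reads cannot be told apart without strand. PGAP3 and MIEN1 overlap exons of ERBB2 from the opposite strand, and the exons of LETM2 overlap those of FGFR1.

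The neighbors of the receptors that stood apart were read as well, a choice made after their values were seen. Within 150 kb of ERBB2 there were 11 other coding genes, of which 5 were expressed and 4 were apart and higher in PLC/PRF/5, beside 10.5% of all expressed genes. GRB7, an adaptor that binds ERBB2, was listed at 0 with empty vector, and was at 0.0302 FPKM with overexpression, 5.38 in control and 4.75 in knockdown cells. STARD3, a cholesterol transport protein, was at 2.08, 2.32, 7.498 and 6.69 FPKM in the same order. PGAP3 (0.656, 0.780, 5.03 and 4.65 FPKM) and MIEN1 (2.05, 1.98, 8.54 and 8.03 FPKM) showed the same arrangement. Both overlap exons of ERBB2, and without strand reads from the overlap cannot be assigned, so they are not fully separate from ERBB2 in the count. CDK12 was at 3.96, 3.40, 6.77 and 7.35 FPKM, which is not apart by the rule. The number of copies of this interval was not tested.

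Around AXL, 11 other coding genes lay within 150 kb, 7 of them expressed and 1 apart, which is near the 10.5% of all expressed genes. That gene was CYP2S1, a cytochrome P450, at 0.782 and 0.420 FPKM in Huh-7 and 18.75 and 18.3 in PLC/PRF/5. HNRNPUL1, the next gene downstream, was at 33.4, 34.7, 41.7 and 43.1 FPKM, and TGFB1 was at 16.6, 17.6, 13.3 and 11.4 FPKM. B9D2 was at 0.600, 0.555, 1.77 and 2.52 FPKM, a PLC/PRF/5 mean 3.72 times that of Huh-7 at low levels. EXOSC5 and CCDC97 were also higher in both PLC/PRF/5 libraries, by ratios of means of 1.75 and 1.53, and BCKDHA was higher in both Huh-7 libraries, by 1.55. None of these had a 2-fold gap.

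**Figure D3:**
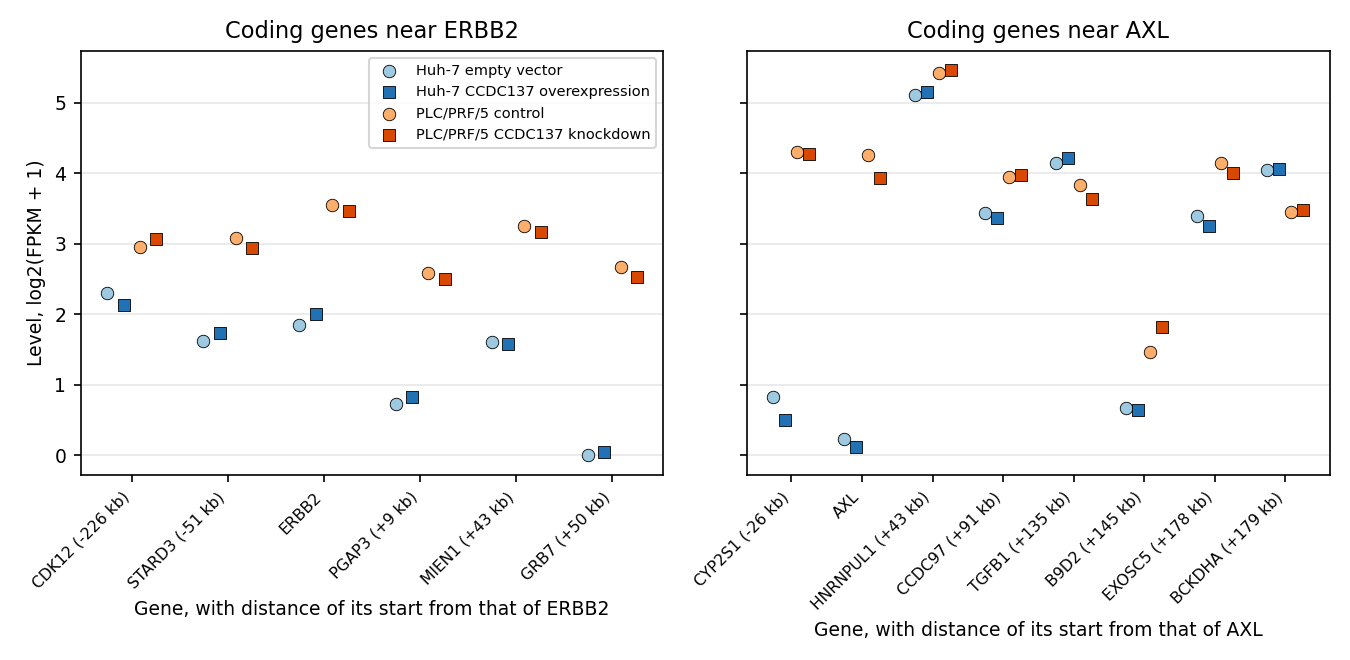
Level as log2(FPKM + 1) of the expressed coding genes within 150 kb of ERBB2 (left) and of AXL (right) in the 4 libraries, ordered by the distance in kb of each gene's start from that of the receptor, with 1 point per library. Of the 5 neighbors of ERBB2, 4 are apart and higher in PLC/PRF/5 (orange) than in Huh-7 (blue), beside 10.5% of all expressed genes. CDK12 is not apart by the rule, and PGAP3 and MIEN1 overlap exons of ERBB2. Near AXL only CYP2S1 shows a gap like that of the receptor.

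The genes with the pattern most like AXL over the 4 libraries were LOXL4, PHKA1P1 and NLGN4X, with root mean squared differences of 0.0815, 0.09 and 0.112 in centered log2(FPKM + 1). LOXL4, a lysyl oxidase, was at 10.3 and 8.29 FPKM in Huh-7 and 156.9 and 134.9 in PLC/PRF/5. For AXL 2 genes lay within 0.1, whereas for ERBB2 161 did. The nearest to ERBB2 were SHFL at 0.0219, the ribosomal protein gene RPL23 at 0.0239 and PABPC1L at 0.0265. Likeness was measured over only 4 libraries, and these genes were picked by it.

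Among the ligands, epiregulin differed between the lines by a larger ratio than any of the receptors, 418 between the means. Like that of AXL, this ratio rests on Huh-7 values far below 1 FPKM. Among 7 EGFR ligands 3 were expressed, and 2 were apart and higher in PLC/PRF/5, beside 10.5% of all expressed genes. Amphiregulin (AREG) was at 45.5 FPKM with empty vector, 37.8 with overexpression, 137.8 in control and 113.2 in knockdown cells. Epiregulin (EREG), which binds EGFR and ERBB4, was at 0.181, 0.164, 77.04 and 66.9 FPKM in the same order. Heparin-binding EGF (HBEGF) was at 0.653, 0.534, 1.10 and 1.17 FPKM. EGFR mRNA was thus lower in the line in which its ligands AREG and EREG were higher. In the treated libraries AREG was at -0.26 and -0.28 and EREG at -0.02 and -0.20 on the log2 scale, none past 1.5-fold.

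None of the 4 neuregulins reached 1 FPKM, and the highest was NRG3, a ligand of ERBB4, at 0.495. Of the neuregulins that bind ERBB3, NRG1 and NRG2, the higher was NRG2 at 0.327 FPKM in the PLC/PRF/5 control. ERBB3 mRNA was thus present without mRNA of these ligands at 1 FPKM. HGF, the ligand of MET, was listed at 0 in both Huh-7 libraries and was at 0.176 and 0.221 FPKM in PLC/PRF/5. Hepsin (HPN), a protease that activates HGF, was at 4.92, 6.22, 2.06 and 1.65 FPKM. SPINT2, an inhibitor of such proteases, was at 0.0602 and 0.110 FPKM in Huh-7 and 30.2 and 25.9 in PLC/PRF/5. ST14 (matriptase) and SPINT1 reached 1 FPKM in Huh-7 alone, at 1.21 and 0.746 FPKM and at 1.53 and 1.09 FPKM.

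GAS6, the ligand of AXL, was below 0.1 FPKM in every library. PROS1 (protein S), a ligand of the related receptors TYRO3 and MERTK, was at 62.7 and 47.8 FPKM in Huh-7 and at 15.7 and 15.9 in PLC/PRF/5, a Huh-7 mean 3.49 times as high. TYRO3 was higher in Huh-7, at 6.94 and 6.37 FPKM against 0.986 and 0.847. MERTK was higher in PLC/PRF/5, at 10.2 and 7.94 FPKM against 3.35 and 4.02. Of the TAM receptors, AXL and MERTK were thus higher in PLC/PRF/5 and TYRO3 in Huh-7.

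Among 16 FGF ligands 1 was expressed, and 8 were listed at 0 in every library. FGF19, a hormone that signals through FGFR4 with the coreceptor KLB, was at 2.52 FPKM with empty vector and 3.06 with overexpression, listed at 0 in control and at 0.0779 in knockdown cells. FGFR4, the receptor of the family best known in hepatocytes, was at 33.9, 36.2, 62.1 and 65.0 FPKM, above FGFR3 in each library. KLB was at 12.6, 13.6, 10.4 and 10.1 FPKM. FGFRL1, which lacks a kinase domain, was at 18.3, 18.9, 10.6 and 9.84 FPKM. ERBB4 and MST1R, the relatives of ERBB3 and MET, stayed below 0.2 FPKM.

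**Figure D4:**
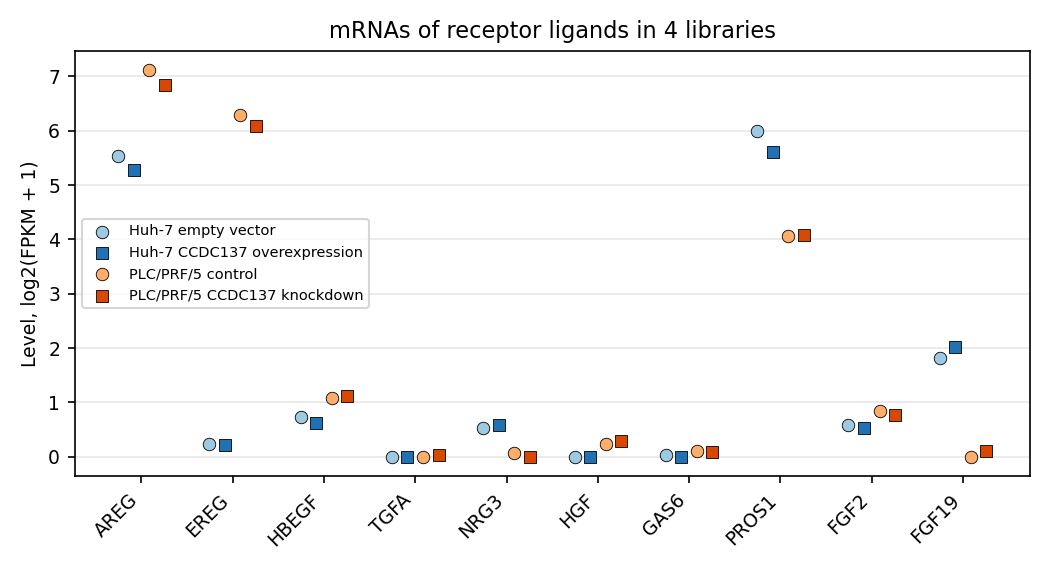
Level as log2(FPKM + 1) of 10 receptor ligands in the 4 libraries, with 1 point per library (blue for Huh-7, orange for PLC/PRF/5, circles for controls, squares for treated). AREG and EREG are higher in PLC/PRF/5, and PROS1 and FGF19 are higher in Huh-7.

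Of the genes around the receptors, 12 lists with 116 genes were read. On overexpression 75 were expressed. On the scale of FPKM + 1, used for all such counts, 5 were past 1.5-fold, 2 higher and 3 lower. That is 6.67% beside 6.21% of all genes. On knockdown 76 were expressed and 3 were past 1.5-fold, all lower, which is 3.95% beside 6.03%. The medians of the listed genes were 0.03 and -0.08 on the log2 scale.

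The genes past 1.5-fold on overexpression had unlike roles. PDPK1, the kinase that phosphorylates AKT in its activation loop, was at 1.80 FPKM with empty vector and 7.00 with overexpression, and at 5.23 and 5.08 in PLC/PRF/5. FRS2, the adaptor of FGF receptors, was at 3.08 and 5.56 FPKM. The empty vector library held the lowest PDPK1 level of the 4, and the control and knockdown libraries did not differ 1.5-fold for either gene. GRB10, an adaptor that restrains insulin receptor signaling, was at 7.59 and 3.86 FPKM on overexpression, and CD44, a coreceptor of MET, was at 10.7 and 4.58 FPKM. In PLC/PRF/5 control and knockdown cells CD44 was at 0.0482 and 0.105 FPKM.

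FOSL1, an AP-1 subunit induced by ERK, was lower in the treated library of both lines. It was at 6.22 FPKM with empty vector and 2.06 with overexpression, and the PLC/PRF/5 control held 14.0 FPKM and the knockdown 5.12, or -1.24 and -1.30 on the log2 scale. No other gene of the lists passed 1.5-fold in both comparisons. EGR1, an immediate early gene, was at 1.18, 0.959, 6.02 and 3.75 FPKM. Its ratio on knockdown was 0.623, but on the scale of FPKM + 1 it lay inside the 1.5-fold line, at -0.56. PHLDA1, another target, was at 18.0, 13.7, 26.3 and 24.8 FPKM.

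On knockdown the other genes past 1.5-fold were CRK, an adaptor, at 14.7 FPKM in the control and 8.72 in the knockdown, and GPC3, a glypican and liver cancer marker, at 28.1 and 18.4 FPKM. GPC3 was at 81.2 and 119.8 FPKM on overexpression, or 0.56 on the log2 scale, just inside the 1.5-fold line, and its knockdown difference of -0.59 was just past it. SDC4 and NRP1, other coreceptors, were at 104.4, 77.6, 95.7 and 97.7 FPKM and at 6.73, 5.30, 22.6 and 18.5 FPKM. Among the adaptors, SHC1 was at 40.9, 41.4, 71.0 and 55.8 FPKM, and GRB2 at 24.7, 17.3, 40.9 and 39.98.

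Of the 19 negative regulators 17 were expressed on overexpression and 18 on knockdown. None passed 1.5-fold on the scale of FPKM + 1, beside 6.21% and 6.03% of all genes. At these shares a list of this size holds few such genes. As plain ratios of FPKM on knockdown, SPRY1 at 0.653 and SOCS4 at 0.664 were past 1.5-fold. SPRY1, a feedback inhibitor of ERK signaling, was at 2.62, 3.26, 6.21 and 4.05 FPKM. SOCS4, a suppressor linked to EGFR turnover, was at 5.57, 3.95, 5.42 and 3.60 FPKM. SPRY4, a relative of SPRY1, was at 6.38, 7.77, 5.34 and 4.57 FPKM. SOCS3 was at 15.04, 12.1, 4.38 and 3.75 FPKM, and ERRFI1, an inhibitor that binds the EGFR kinase, at 34.6, 39.0, 56.5 and 52.7 FPKM.

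Sheddases release EGFR ligands from the membrane, and of 6 genes listed for them 5 were expressed in each comparison. None passed 1.5-fold, beside 6.21% and 6.03% of all genes, and a list this small could hold none at those shares. ADAM17, which cleaves AREG, was at 1.87 FPKM with empty vector, 2.45 with overexpression, 5.64 in control and 4.93 in knockdown cells, higher in PLC/PRF/5 as AREG was. RHBDF2, which escorts ADAM17, was at 2.17, 1.93, 8.86 and 7.499 FPKM. It was apart by the 2-fold rule, 1 of the 5 expressed, beside 10.5% of all genes. ADAM10 was at 5.72, 6.14, 12.7 and 13.8 FPKM, and ADAM9, the most abundant, at 45.5, 46.5, 36.03 and 34.5.

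Between the lines, 83 listed genes were expressed, 15 apart and higher in PLC/PRF/5 (18.1%, beside 10.5% of all genes) and 10 apart and higher in Huh-7 (12.0%, beside 9.53%). Of the 12 expressed ERK feedback and immediate early targets, 5 were apart and higher in PLC/PRF/5, beside 10.5% of all genes. None was apart and higher in Huh-7. ETV4, a transcription factor induced by FGF and ERK signaling, was at 6.29 and 7.25 FPKM in Huh-7 and 57.6 and 53.5 in PLC/PRF/5. The phosphatase genes DUSP4 and DUSP5 were at 2.38 and 2.10 FPKM against 21.9 and 24.4, and at 8.62 and 6.23 FPKM against 70.3 and 54.3. IER3 was at 24.0 and 24.4 FPKM against 131.1 and 123.4, and EGR1 was the remaining one. DUSP6, in contrast, was at 11.8, 15.1, 13.9 and 15.1 FPKM and overlapped between the lines.

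Of the 11 expressed PI3K and AKT genes, 2 were apart and higher in Huh-7, beside 9.53% of all genes, and none was apart and higher in PLC/PRF/5. These were the regulatory subunits PIK3R3, at 5.53 and 5.61 FPKM against 1.34 and 1.54, and PIK3R2, at 18.5 and 20.2 FPKM against 8.73 and 6.55, the latter gene at the edge of the rule with a gap of 1.00 on the log2 scale. PIK3R1 was at 1.67, 2.89, 1.02 and 1.14 FPKM. Its ratio on overexpression was 1.73, but on the scale of FPKM + 1 it lay inside the 1.5-fold line, at 0.54. RICTOR was at 3.43, 3.99, 1.75 and 1.37 FPKM, and MTOR at 20.6, 19.6, 13.1 and 13.2. AKT1 and AKT2 were higher in both PLC/PRF/5 libraries, without a 2-fold gap. AKT1 was at 4.92, 4.84, 7.51 and 8.28 FPKM and AKT2 at 3.88, 3.90, 6.44 and 6.93 FPKM, with no 1.5-fold difference in either comparison. These mRNA levels do not measure phosphorylation or protein.

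**Figure D5:**
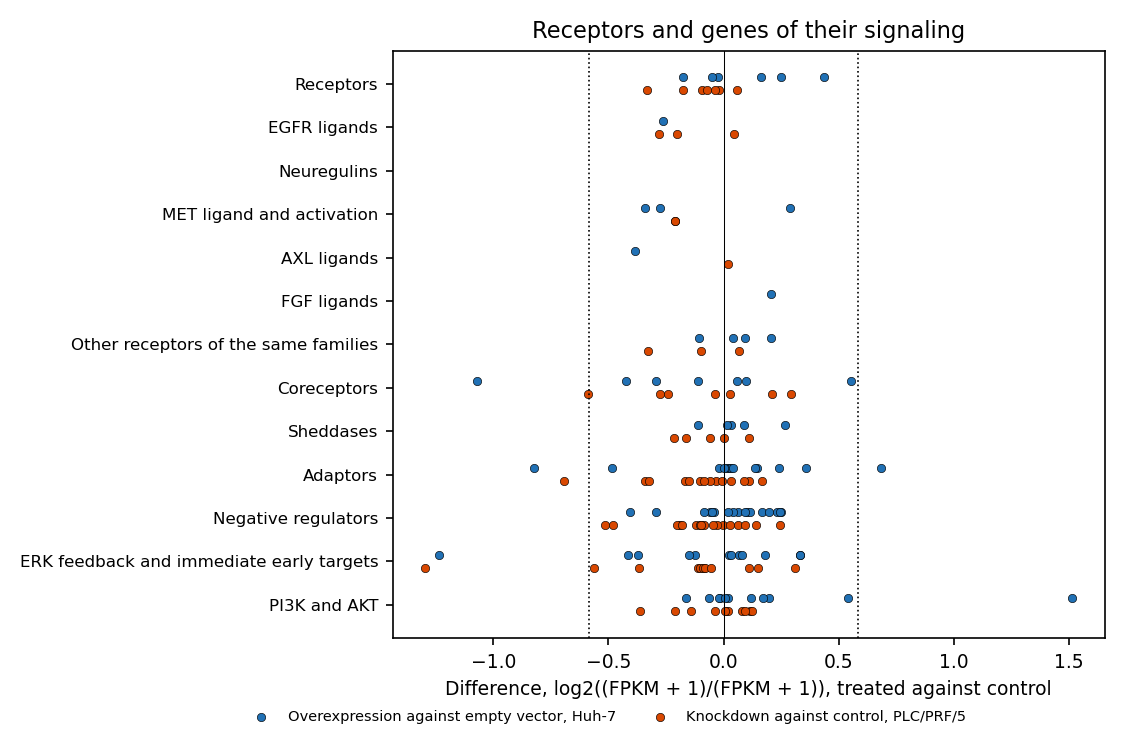
Differences of the receptors and of the 12 lists around them, as log2((FPKM + 1)/(FPKM + 1)) of treated against control, with 1 point per gene expressed in that comparison (blue for overexpression, orange for knockdown) and dotted lines at 1.5-fold. FOSL1 lies past the line in both comparisons, and PDPK1 at 1.51 on overexpression is the largest difference.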

How the data were processed

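Polyadenylated RNA of 4 libraries, 1 per group as labelled, was selected with oligo(dT), marked with dUTP on the second strand and sequenced in paired ends. Tools named by the submitters' processing notes are HISAT2 2.0.4, StringTie 1.3.4d and cutadapt. For genome build, annotation and use of strand: not given in the sources used here. Values deposited by the authors were FPKM of each gene. The deposited fold, log2, p-value and q-value columns and marks of regulation and significance hold the authors' own comparisons and were not used. A listed 0.0001 was set to 0.

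FPKM summed to 283507, 276444, 284984 and 289684 in Huh-7 empty vector and overexpression and PLC/PRF/5 control and knockdown libraries. Read counts were not analysed here and depth is unknown. The commonest ratio among genes below 0.1 FPKM gave a relative depth of 0.863 for overexpression and 1.17 for knockdown, an estimate from 3.0% and 3.08% of such genes.

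Differences of treated against control were log2((FPKM + 1)/(FPKM + 1)), a scale that understates those of low genes. Python 3.11.15, pandas 2.3.3, numpy 2.4.6 and matplotlib 3.10.9 were used. Genes counted as expressed at 1 FPKM in either library of a comparison, and between lines in any library. Scripts were tested on simulated data. Members and lists were chosen with earlier results of these data known. Named genes were the 8 receptors, CCDC137, and from each list the 4 expressed members with the largest absolute difference in either comparison and those with the highest FPKM. The 3 genes most like AXL and ERBB2, the receptors of widest range, were also named. Other list genes, neighbors and markers were chosen after their values were seen. Alternatives were another pseudocount, other filters, rescaling, centring and other folds.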

Additional observations from a re-analysis of the deposited data

How the results depend on the processing

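The counts of receptors past 1.5-fold stayed at 0 in both comparisons, and AXL and ERBB2 remained the receptors apart between the lines, under FPKM + 0.1, a filter of 0.5 FPKM or none, rescaled libraries and centring. At a 1.5-fold gap ERBB3 joined, which made 3. The share of all expressed genes apart at that gap was not computed, so this count has no background. The median receptor difference ranged from -0.01 without a filter to 0.12 with rescaled libraries on overexpression, and from -0.11 to -0.06 on knockdown. Of 65 values of single receptors, 1 changed sign, that of MET on overexpression, from -0.03 to 0.01 with rescaled libraries. No paired analysis was possible because each group has 1 library. Without counts, the depth behind low values such as AXL in Huh-7 is unknown.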
